A study of Mus musculus with 18 samples.

Results

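Cecr2 and 9 subunits of the ISWI and SWI/SNF chromatin remodelling complexes were followed across 18 mouse arrays. The members are Cecr2, Smarca1, Smarca5, Baz1a, Baz1b, Bptf, Smarca4, Smarca2, Smarcb1 and Arid1a. They were found as every probe set that the array annotation pairs with 1 of these symbols alone, which gave 27 of 45037 probe sets and 10 of 18193 genes. A probe set is a group of short oligonucleotides on the array that together measure 1 transcript. The list was built around Cecr2, which was chosen by its high signal before transformation relative to control, so no member is tested in that contrast.

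Total RNA was measured on 1 Affymetrix array per mouse. The groups were 8 CD4Cre-ctnnbex3 mice with lymphomas, 5 mice of the same genotype sampled before T cell transformation, and 5 controls. In CD4Cre-ctnnbex3 mice a Cre recombinase driven by Cd4 regulatory sequences removes exon 3 of the beta-catenin gene Ctnnb1 in T cells from thymic development on, which leaves a beta-catenin that escapes degradation. The sample labels call the controls wild type and the design text calls them LckCre, and which holds was not settled. The sources used here give neither ages nor strains. The samples were thymocytes or tumour masses taken whole, so every level is an average over all cells present, and fewer cells of a type cannot be told apart from less RNA per cell.

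Chromatin remodellers use ATP to move, evict or space nucleosomes. ISWI complexes pair a catalytic subunit, Smarca5 (SNF2H) or Smarca1 (SNF2L), with a large partner that sets where the complex acts: Baz1a in ACF and CHRAC, Baz1b in WICH, Bptf in NURF and Cecr2 in CERF. SWI/SNF (BAF) complexes pair Smarca4 (BRG1) or Smarca2 (BRM) with shared subunits such as Smarcb1 and with targeting subunits such as Arid1a. Smarca4 is known to be needed for thymocyte development, and Bptf for T-cell development and function in mice.

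Intensities are linear dChip signals. Values below an intensity of 53.5, the 20th percentile of all values, were set to that floor before log2 was taken. Array medians lay between 125.2 and 165.9 and arrays correlated with each other at 0.716 to 0.983. Probe sets for the hybridization controls added to every sample had a mean log2 signal of 9.95 to 10.68 on the lymphoma arrays. It was 10.74 to 11.24 on the other 10, so these groups did not overlap in that measure. Its part in the differences below was not tested. A member's probe sets are not compared with each other in level, since probe sets bind with different strength.

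Cecr2, the bromodomain partner of the CERF complex, had by far the highest signal before transformation, an intermediate signal in lymphomas and a low signal in controls. On probe set 1457039_at the 8 lymphomas had a lowest intensity of 336, a median of 813 and a highest of 1362. The 5 mice before transformation had 6616, 6385, 4230, 6475 and 5652. The controls had 133, 150, 108, 148 and 105. No 2 of the 3 groups overlapped, and lymphoma 3 was the lowest of the lymphomas.

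The second Cecr2 probe set, 1431014_at, gave the same order of groups. Its lymphoma intensities had a lowest value of 169, a median of 376 and a highest of 620. Before transformation the mice had 2374, 2550, 1871, 2225 and 2317. All 5 controls lay under the floor, with values from -4.65 to 5.89. Lymphoma 3 was again the lowest of the tumours, and lymphoma 5 replaced lymphoma 1 as the highest.

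Cecr2 was chosen on the arrays before transformation and the control arrays, so its differences are given with no test. The signal of 1457039_at was lower in lymphomas than before transformation, with a log2 difference of -2.88 ± 0.27 (SE, 8 and 5 mice), which is 7.36-fold, and that of 1431014_at had a difference of -2.54 ± 0.25. Against controls the signal of 1457039_at was higher in lymphomas by 2.63 ± 0.27 (6.18-fold), and that of 1431014_at was at least 7.24-fold higher than in the controls at the floor. All 8 lymphomas lay below every mouse before transformation and above every control on both probe sets. In the contrast that chose Cecr2, the signal of 1457039_at was 45.5-fold higher before transformation than in controls, a log2 difference of 5.51 ± 0.15 (SE, 5 mice each), and that of 1431014_at was at least 42.2-fold higher. These are descriptions of how Cecr2 was picked.

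**Figure D1:**
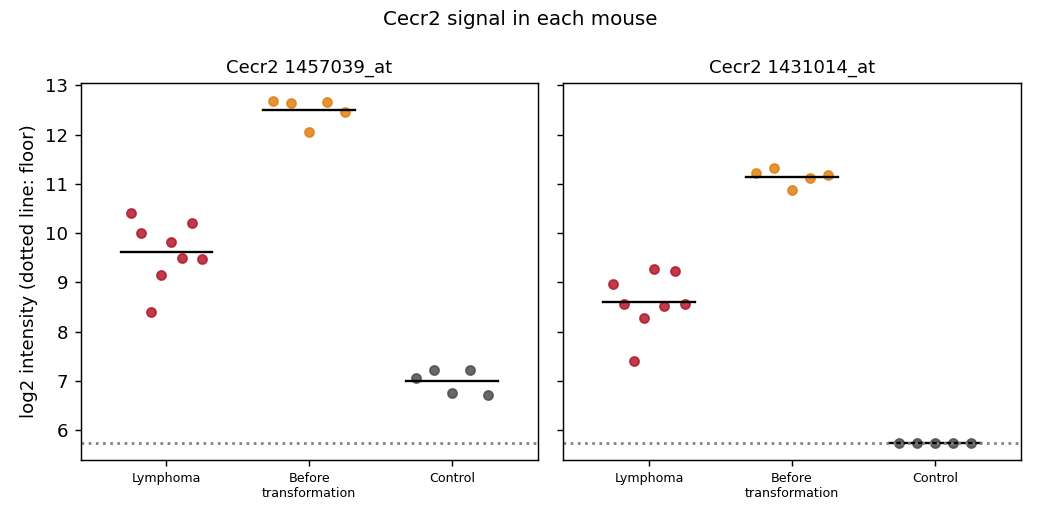
Log2 intensity of the 2 Cecr2 probe sets (vertical axis) in each mouse of the lymphoma, before-transformation and control groups; points are mice, bars are group means and the dotted line is the floor. The lymphomas lie between the other groups on both probe sets, and all 5 controls sit at the floor on 1431014_at.

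Likeness to Cecr2 was measured as the root mean square difference between log2 profiles over the 18 arrays, each centred on its mean. The nearest gene was Slc1a4, a neutral amino acid transporter, at 0.48. Il12rb2, a chain of the interleukin-12 receptor, followed at 0.83. Podxl2 and the hyaluronan receptor Cd44 stood at 1.01 each, the splicing regulator Esrp2 at 1.09 and the adhesion molecule Cadm4 at 1.11. Slc1a4 had mean log2 levels of 7.73 in lymphomas and 10.60 before transformation, and in controls it was at the floor of 5.74. The same array differences enter both members of each pair, so these values describe the arrays only.

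Smarca5, an ISWI motor, had 4 probe sets that disagreed in direction between lymphomas and mice before transformation (-0.42 to 0.24). Between lymphomas and controls all 4 differences were below 0 (-0.27 to -0.04), and none passed. On 1424206_at the lymphomas had a lowest intensity of 533, a median of 1327 and a highest of 1784. The mice before transformation had 1304, 1376, 1143, 1188 and 1059, and the controls 1509, 1527, 1310, 1276 and 1319. The groups overlapped, and the lowest value of all was that of lymphoma 6. The difference between lymphomas and mice before transformation was 0.06 ± 0.22 (95% interval -0.42 to 0.54, adjusted p = 0.868). Against controls it was -0.14 ± 0.22 (-0.61 to 0.33, adjusted p = 0.645).

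Among the other 3 Smarca5 probe sets, 1 passed the test, and only against mice before transformation. Probe set 1440048_at fell in lymphomas by 0.42 ± 0.14 (adjusted p = 0.0283), a call that was lost without mouse 3, 4 or 5 before transformation (adjusted p of 0.068, 0.0763 and 0.0827). The others did not pass, with differences of 0.24 ± 0.24 (1424207_at) and 0.08 ± 0.30 (1424205_at). Without lymphoma 6 the difference of 1424207_at was 0.43 (adjusted p = 0.0201), so 1 tumour decides that value. With the mouse number as a replicate block the same probe set rose by 0.51 (adjusted p = 0.00639). Lymphomas 6, 7 and 8 have no same-numbered mouse in the other groups. The block fit therefore rests on the other lymphomas, and lymphoma 6 is set aside in it too. With mice numbered 1 and 2 alone 1424205_at rose by 0.64 (adjusted p = 0.0218). The position of the probe sets in the transcript was not analysed here. Smarca1, the other ISWI motor, had 1 probe set and did not pass the filter on low signal. It lay at the floor in all 8 lymphomas, in 3 of the 5 mice before transformation and in all 5 controls, and 63.3 and 73.1 were the 2 values above it.

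Baz1a, the ACF and CHRAC partner of Smarca5, was higher in lymphomas and before transformation than in controls. Its probe set 1447930_at had a lowest intensity of 1035, a median of 1271 and a highest of 1695 in lymphomas. Before transformation the values were 1303, 1104, 1356, 1320 and 1094, against 937, 854, 768, 737 and 724 in controls. The lymphomas overlapped with the mice before transformation, and neither group overlapped with the controls. Baz1a rose in lymphomas against controls by 0.69 ± 0.13 (1.62-fold, adjusted p = 0.000539), and its second probe set 1433599_at by 0.98 ± 0.14 (adjusted p = 8.01e-05).

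Against mice before transformation, Baz1a differed in lymphomas by 0.07 ± 0.13 on 1447930_at (adjusted p = 0.684) and rose by 0.42 ± 0.15 on 1433599_at (adjusted p = 0.0385). That rise missed the threshold under 12 of 24 alternative settings, among them those without lymphoma 2, 3, 4, 5 or 8 or without mouse 1, 2, 4 or 5 before transformation (adjusted p of 0.0572 to 0.0916). Before transformation the Baz1a signal was 0.62 ± 0.10 above control on 1447930_at and 0.55 ± 0.11 on 1433599_at.

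Baz1b, the WICH partner, had 5 probe sets and none passed in either comparison with the deposited scaling and all mice. After quantile normalization 1450068_at rose in lymphomas by 0.41 against mice before transformation (adjusted p = 0.0186) and by 0.39 against controls (adjusted p = 0.0331). It also rose with each array centred on its median, by 0.38 and 0.34 (adjusted p = 0.0227 and 0.0499). With the deposited scaling and mice numbered 3 and up alone it rose by 0.47 and 0.57 (adjusted p = 0.0192 and 0.00917), whereas with mice 1 and 2 alone the differences were -0.12 and -0.37. Without lymphoma 7, 1434824_at fell against controls by 0.22 (adjusted p = 0.0382). The differences of the 5 between lymphomas and mice before transformation ran from -0.10 to 0.30, and those between lymphomas and controls from -0.17 to 0.26. On 1434824_at, the probe set with the highest signal, lymphomas had a lowest intensity of 1348, a median of 1559 and a highest of 1968. The values before transformation were 1807, 1732, 1694, 1536 and 1439, against 1917, 1805, 1631, 1699 and 1883 in controls. The 95% intervals of its differences were -0.26 to 0.16 against mice before transformation and -0.37 to 0.02 against controls.

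Bptf, the reader subunit of NURF that binds methylated histone H3 tails, fell in lymphomas on all 4 of its probe sets in both comparisons. On 1427310_at the lymphomas had a lowest intensity of 1176, a median of 1704 and a highest of 2327. Before transformation the values were 3444, 2630, 3337, 3798 and 3153, against 2995, 3015, 3570, 3390 and 3412 in controls. Every lymphoma lay below every other mouse, and the other groups overlapped with each other.

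Bptf on 1427310_at fell in lymphomas by 0.95 ± 0.13 against mice before transformation (1.93-fold, adjusted p = 0.000109) and by 0.96 ± 0.12 against controls (1.94-fold, adjusted p = 3.01e-05). The other probe sets fell by 1.03 (1456615_a_at), 0.66 (1439102_at) and 0.53 (1427311_at) against mice before transformation, with adjusted p-values of 0.00011, 0.00261 and 0.034. Against controls they fell by 0.96, 0.90 and 0.85. The call of 1427311_at against mice before transformation was lost under 8 of 24 alternative settings, including without lymphoma 3 or 8 or without mouse 3, 4 or 5 before transformation (adjusted p of 0.0527 to 0.101). With mice numbered 1 and 2 alone its difference was -0.11 (adjusted p = 0.753), and that of 1439102_at was -0.57 (adjusted p = 0.0659). Against controls 1427311_at also missed the threshold in those mice, at -0.60 (adjusted p = 0.0992). Before transformation the signal of 1427310_at differed from control by -0.01 ± 0.10, with a 95% interval of -0.22 to 0.20.

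The Bptf promoter is shown because Bptf had the largest fall of any tested member in lymphomas against mice before transformation. RefSeq windows, which run from 250 bases before to 50 bases after a gene's start, matched 8 of the 10 members, with none for Cecr2 or Baz1a. They were searched on both strands for CTTTGA, the core that TCF/LEF factors bind with beta-catenin, and for CACGTG, the E-box bound by Myc and related factors. The Bptf window (GRCm38.p6, chr11:107132098-107132397, minus strand) holds the E-box, in capitals, starting 43 bases before the gene's start.
Bptf: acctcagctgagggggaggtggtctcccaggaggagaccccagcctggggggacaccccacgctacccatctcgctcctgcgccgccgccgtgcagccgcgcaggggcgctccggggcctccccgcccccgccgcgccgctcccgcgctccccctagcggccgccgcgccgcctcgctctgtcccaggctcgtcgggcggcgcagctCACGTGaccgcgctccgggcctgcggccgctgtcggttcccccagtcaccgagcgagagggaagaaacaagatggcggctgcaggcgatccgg
The E-box stands in 7.15% of the 32851 promoter windows of all genes. Among the 8 matched members it was found in the Bptf window alone, and a match describes the letters and is not evidence of binding.

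Smarca4 and Smarca2, the alternative motors of SWI/SNF, differed from controls in opposite directions. Smarca4 on 1426804_at had a lowest intensity of 1835, a median of 1869 and a highest of 1984 in lymphomas. This was the narrowest spread of any tested member probe set there (log2 SD 0.038). The other Smarca4 probe set, 1426805_at, did not share it (log2 SD 0.19). Before transformation 1426804_at had 2440, 1956, 2035, 2604 and 2283, against 3046, 2923, 3643, 3249 and 3424 in controls. The controls were the highest group and overlapped with neither of the others, and 7 of the 8 lymphomas lay below every mouse before transformation.

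Smarca4 fell in lymphomas against controls by 0.79 ± 0.07 on 1426804_at (1.73-fold, adjusted p = 7.4e-07) and by 0.98 ± 0.11 on 1426805_at (1.98-fold, adjusted p = 6.34e-06). Against mice before transformation it fell by 0.26 ± 0.08 (adjusted p = 0.0233) and 0.34 ± 0.12 (adjusted p = 0.0364). These smaller falls were lost under 7 of 25 and 9 of 24 alternative settings. On 1426804_at the difference was -0.10 (adjusted p = 0.384) after quantile normalization, and its adjusted p was 0.0648, 0.0775 and 0.0526 without mouse 1, 4 or 5 before transformation. The call of 1426805_at was lost without lymphoma 1, 2, 6 or 8 or without mouse 3, 4 or 5 before transformation (adjusted p of 0.0527 to 0.107). Before transformation the signal stood 0.53 ± 0.09 and 0.65 ± 0.11 below control on the 2 probe sets.

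Smarca2 had higher signals before transformation than in controls on both probe sets, and its 2 probe sets gave different pictures of the lymphomas. On 1430526_a_at the lymphomas ranged from 297 to 2606 with a median of 726. Before transformation the values were 1143, 918, 655, 843 and 658, against 367, 314, 435, 390 and 349 in controls. The value of 2606 was that of lymphoma 3 and the value of 297 that of lymphoma 6. On 1452333_at lymphoma 3 had 361, and the lymphomas ran from 331 to 566 with a median of 408. Before transformation this probe set had 679, 720, 722, 807 and 539, against 310, 269, 382, 367 and 317 in controls.

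Smarca2 rose in lymphomas against controls by 1.04 ± 0.35 on 1430526_a_at (adjusted p = 0.0283) and by 0.36 ± 0.14 on 1452333_at (adjusted p = 0.0477), and the groups overlapped on both. Without lymphoma 3 the rise on 1430526_a_at was 0.78 (adjusted p = 0.0142). Without control 1, 2 or 5 it missed the threshold, with adjusted p-values of 0.0537, 0.0652 and 0.055. The rise on 1452333_at was lost without lymphoma 1, 2, 4, 5, 7 or 8 or without control 1, 2, 4 or 5 (adjusted p of 0.0501 to 0.134). With mice numbered 3 and up alone 1430526_a_at differed from controls by 0.98 (adjusted p = 0.158). Against mice before transformation, 1430526_a_at differed by -0.12 ± 0.36 (95% interval -0.90 to 0.65, adjusted p = 0.816) and 1452333_at fell by 0.72 ± 0.14 (adjusted p = 0.00108). Before transformation the signals stood 1.16 ± 0.16 and 1.07 ± 0.13 above control.

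The promoters of these paralogs are shown because the genes differed from controls in opposite directions. The Smarca4 window (chr9:21615919-21616218, plus strand) holds the TCF/LEF core once, on the minus strand, so that the capitals below read as its reverse complement. Its first base in the window lies 104 bases before the start. The Smarca2 window (chr19:26604910-26605209, plus strand) holds neither motif.
Smarca4: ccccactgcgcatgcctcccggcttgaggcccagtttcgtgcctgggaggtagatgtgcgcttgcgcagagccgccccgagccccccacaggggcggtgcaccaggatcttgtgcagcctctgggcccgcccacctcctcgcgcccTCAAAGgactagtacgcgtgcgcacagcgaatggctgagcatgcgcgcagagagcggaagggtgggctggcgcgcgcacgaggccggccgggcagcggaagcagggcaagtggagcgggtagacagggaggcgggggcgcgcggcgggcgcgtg
Smarca2: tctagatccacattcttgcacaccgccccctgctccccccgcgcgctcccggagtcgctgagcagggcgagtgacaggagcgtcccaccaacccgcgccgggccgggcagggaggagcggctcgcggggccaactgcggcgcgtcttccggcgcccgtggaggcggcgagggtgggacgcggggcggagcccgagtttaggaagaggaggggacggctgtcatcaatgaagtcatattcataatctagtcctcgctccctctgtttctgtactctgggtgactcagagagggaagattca
The core stands in 16% of all windows. No other member's window held it, and its absence says only that these letters are not in those 300 bases.

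The balance of paralogs was taken in each mouse as the log2 difference between 2 probe sets, which has no meaning as a level but can be compared between groups. Smarca2 minus Smarca4 averaged -1.31 ± 0.87 in lymphomas and -3.14 ± 0.11 in controls (SD, 8 and 5 mice), a change of 1.82, with every lymphoma above every control. The exact two-sided permutation test gave p = 0.000777, the smallest that 1287 permutations allow, and 0.00155 after adjustment over 4 tests. Before transformation it averaged -1.45 ± 0.33, and lymphomas differed from that by 0.13 (exact permutation p = 0.737, adjusted 0.737).

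Baz1a minus Baz1b averaged -0.29 ± 0.31 in lymphomas and -1.16 ± 0.14 in controls, a change of 0.87 with no overlap (exact permutation p = 0.000777, adjusted 0.00155). Against the mean of -0.41 ± 0.16 before transformation the change was 0.12 (exact permutation p = 0.448, adjusted 0.597). Both changes of the Smarca2 pair use 1430526_a_at, on which lymphoma 3 stood far above the others. The pair was not tested with the other Smarca2 probe set, 1452333_at. Against mice before transformation 1452333_at fell by 0.72 (limma adjusted p = 0.00108) and Smarca4 1426804_at by 0.26 (0.0233). Against controls 1452333_at rose by 0.36 (limma adjusted p = 0.0477).

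**Figure D2:**
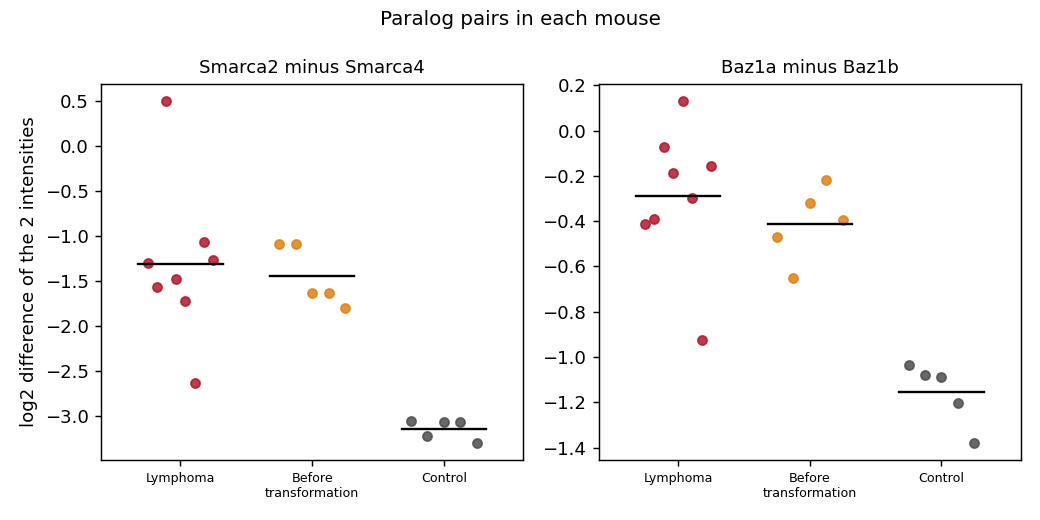
Log2 difference between the paralogs' highest-signal probe sets in each mouse (vertical axis), by group; points are mice and bars are means. In both pairs every lymphoma and every mouse before transformation lies above every control, and lymphoma 3 is the highest point of the Smarca2 and Smarca4 pair at 0.50.

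Arid1a, the DNA-binding subunit that defines canonical BAF complexes, fell in lymphomas on both probe sets and in both comparisons. On 1417440_at the lymphomas had a lowest intensity of 1324, a median of 1628 and a highest of 1910. Before transformation the values were 2447, 2000, 2341, 2111 and 2212, against 2293, 2172, 2610, 2619 and 2985 in controls. All 8 lymphomas lay below all 10 other mice. The fall was 0.48 ± 0.10 against mice before transformation (1.39-fold, adjusted p = 0.00256) and 0.66 ± 0.11 against controls (1.58-fold, adjusted p = 0.000232).

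On 1448709_at Arid1a fell in lymphomas by 0.64 ± 0.10 and 0.81 ± 0.09 in the same comparisons (adjusted p = 0.000161 and 7.84e-06). The first call was lost with mice numbered 1 and 2 alone, where the difference was -0.43 (adjusted p = 0.0905). Before transformation the Arid1a signals stood 0.19 ± 0.09 (1417440_at) and 0.17 ± 0.08 (1448709_at) below control, with overlapping groups.

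Smarcb1, the core subunit of SWI/SNF and a tumour suppressor in rhabdoid tumours, did not pass on its highest-signal probe set 1416045_a_at. Lymphomas ranged there from 617 to 756 with a median of 698. The values before transformation were 636, 559, 689, 535 and 640, against 662, 643, 580, 588 and 754 in controls. The differences were 0.19 ± 0.10 against mice before transformation (95% interval -0.01 to 0.40, adjusted p = 0.131) and 0.12 ± 0.09 against controls (-0.08 to 0.32, adjusted p = 0.339). After quantile normalization it rose against mice before transformation by 0.28 (adjusted p = 0.0423). The probe set 1435856_x_at rose in lymphomas by 0.56 ± 0.13 against mice before transformation (adjusted p = 0.00421) and 0.48 ± 0.13 against controls (adjusted p = 0.00881). Both calls were lost with mice numbered 1 and 2 alone, where the differences were 0.36 (adjusted p = 0.197) and 0.39 (adjusted p = 0.104). The remaining probe set, 1456938_at, was too dim to be tested.

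**Figure D3:**
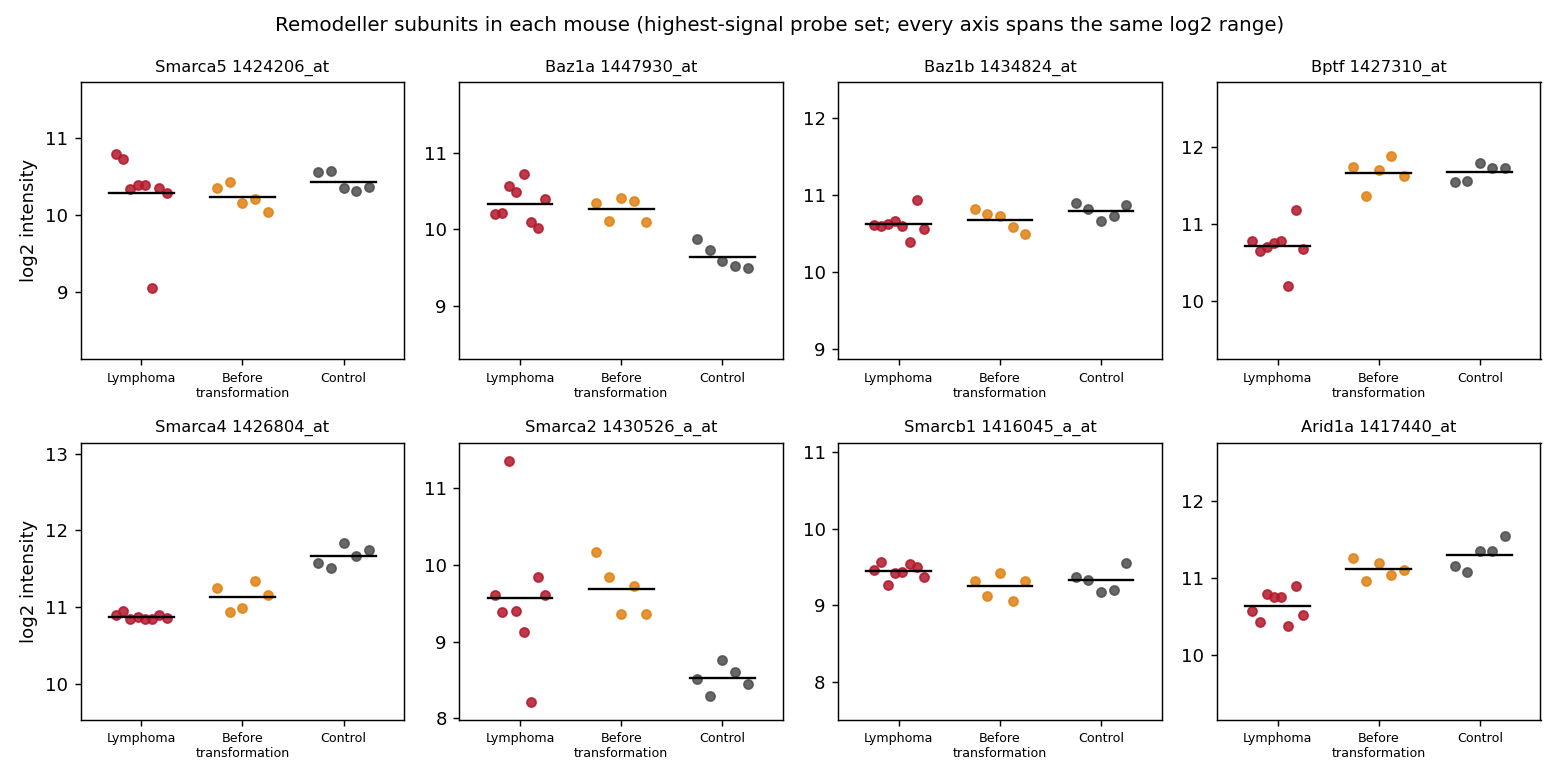
Log2 intensity of the highest-signal probe set of 8 members (vertical axes, each spanning the same log2 range) in every mouse, by group; points are mice and bars are means. Bptf and Arid1a are lower in all 8 lymphomas than in any other mouse, Smarca4 is highest in controls, and single lymphomas stand apart for Smarca5 and Smarca2.

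With each gene represented by its highest-signal probe set, 9 of the 10 members passed the filter on low signal, and 8 of these were tested, Cecr2 being left out because it was chosen on these arrays. In lymphomas against mice before transformation none of the 8 rose and 3 fell, namely Bptf, Smarca4 and Arid1a. Of all 14019 genes tested, 16.1% rose and 18.5% fell in that comparison. In lymphomas against controls Baz1a and Smarca2 rose and Bptf, Smarca4 and Arid1a fell, beside 17.3% and 22.6% of all genes. The median difference of the 8 was -0.09 against mice before transformation and -0.16 against controls, next to -0.03 in both for all genes.

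Before transformation, 3 members lay wholly above control (Cecr2, Baz1a and Smarca2) and 1 wholly below (Smarca4). Of all genes, 4.32% lay wholly above and 6.24% wholly below. The choice of Cecr2 used this contrast, so nothing is read from these member counts. The comparisons share arrays with each other, and their values are given side by side only.

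**Figure D4:**
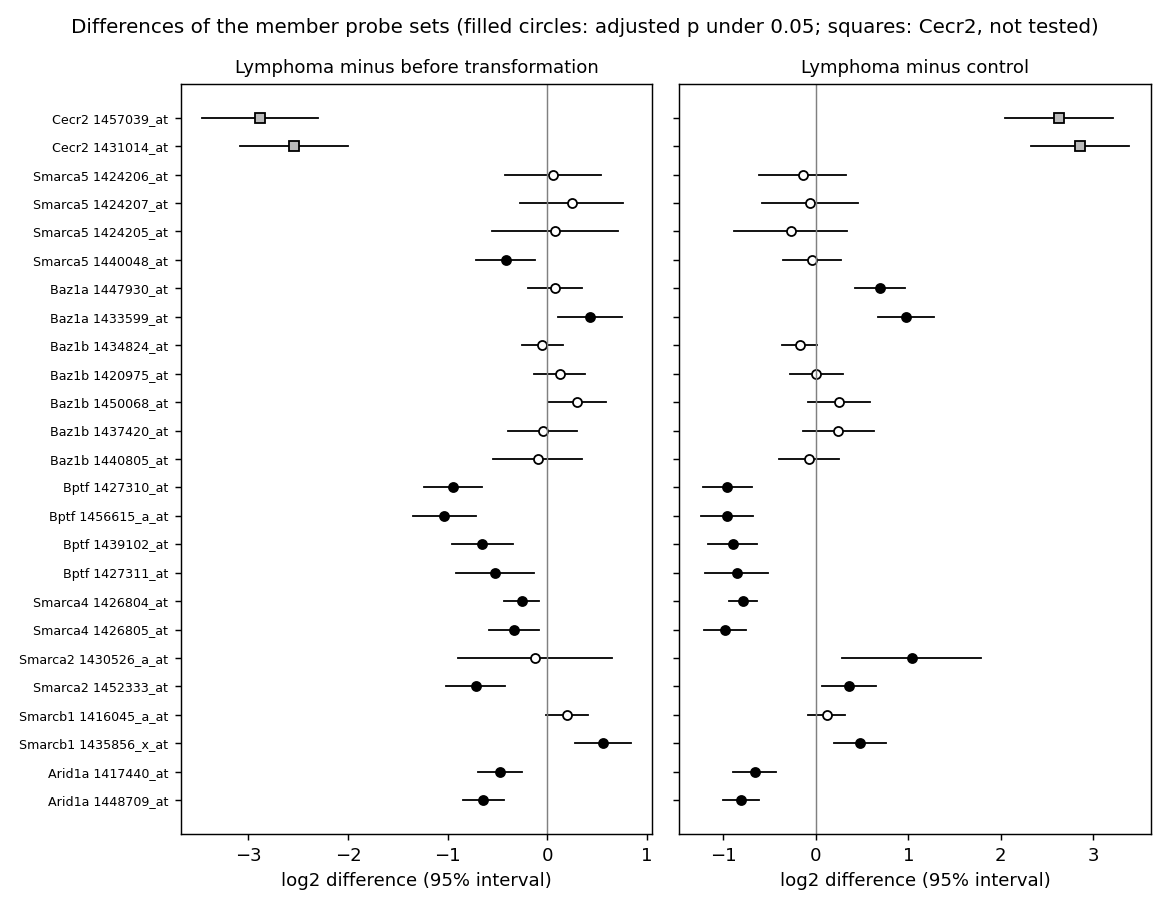
Log2 difference (horizontal axis) with its 95% interval for the 25 member probe sets that passed the filter on low signal, for lymphoma minus before transformation (left) and lymphoma minus control (right); filled circles passed an adjusted p under 0.05, open circles did not, and grey squares are Cecr2, which was not tested. The 4 Bptf, 2 Smarca4 and 2 Arid1a probe sets lie below 0 in both panels, and the 2 Cecr2 probe sets lie below 0 on the left and above 0 on the right.

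Other remodeller and bromodomain genes were taken from lists of 107 genes, of which 102 were tested. In lymphomas 15 rose and 27 fell against mice before transformation, where 16.1% of all genes rose and 18.5% fell. Against controls 14 rose and 40 fell, where 17.3% of all genes rose and 22.6% fell. The second split was 18 and 30 after quantile normalization and 15 and 26 with arrays centred on their medians. Before transformation 4 rose and 12 fell against control, beside 4.34% and 6.06% of all genes. Single mice moved the count of 12: it was 6 without control 3 and 7 without mouse 5 before transformation. It was 5 in 1 fit of all 3 groups and 20 with the set of mouse numbers (1 and 2 against 3 and up) as a covariate.

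Of the 7 other ISWI partners, 1 rose and 2 fell in lymphomas against mice before transformation. Baz2a, the NoRC subunit that acts on ribosomal DNA, fell by 1.04 ± 0.14 (adjusted p = 5.58e-05) and its relative Baz2b by 1.28 ± 0.25 (adjusted p = 0.00131). Pole3, a histone-fold subunit of CHRAC, rose by 0.46 (adjusted p = 0.039). Against controls Baz2a fell by 1.02, Baz2b by 1.77 and the histone chaperone Rbbp4 by 0.28, each past the threshold. Baz2b alone passed before transformation against control, where it fell by 0.49 (adjusted p = 0.0248).

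Of 23 further SWI/SNF subunits tested, 2 rose and 8 fell in lymphomas against mice before transformation. The scaffold subunit Smarcc1 rose by 0.78 ± 0.15 (adjusted p = 0.000839) and Bcl7a by 0.79 ± 0.15 (adjusted p = 0.00112), while Arid1b, the paralog of Arid1a, fell by 0.62 ± 0.12 (adjusted p = 0.00102). Against controls 3 rose and 8 fell, among them Bicra, of the GBAF complex (by 1.04), Bcl7b (by 0.77) and Smarcc2, the paralog of Smarcc1 (by 0.90). Before transformation Ss18, the BAF subunit fused in synovial sarcoma, rose against control by 0.75 ± 0.09 (adjusted p = 0.000291), whereas Bcl7a fell by 0.92 and Bicra by 0.50.

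Of 18 CHD and NuRD genes, 4 rose and 3 fell in lymphomas against mice before transformation. Chd5, which lay at the floor in all 5 mice before transformation, rose at least 3.43-fold (adjusted p = 2.99e-05), and Mta1 rose by 0.75. Mbd2, which reads methylated DNA, fell in lymphomas by 1.06 (adjusted p = 4.26e-05), and before transformation it rose against control by 1.15 (adjusted p = 1.19e-05). Against controls 4 rose and 7 fell in lymphomas. There Chd7 rose by 1.81 ± 0.29 (adjusted p = 0.000202), Chd6 fell by 0.79 and the deacetylase Hdac1 by 0.37. Before transformation 1 rose and 6 fell, including Mta1 (by 0.51) and Chd1 (by 0.42).

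Of 20 INO80 and SRCAP genes, 4 rose and 4 fell in lymphomas against mice before transformation. The ATPase Ruvbl1 rose by 1.03 ± 0.16 (adjusted p = 0.00026), while the INO80 subunits Nfrkb and Ino80d fell by 0.65 and 0.87. Against controls 3 rose and 8 fell, with Ruvbl1 higher by 0.86 and Nfrkb and Ino80d lower by 0.65 and 0.88. Actr6 alone passed before transformation, where it rose against control by 0.62 (adjusted p = 0.00918).

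Among 11 other SNF2 family genes tested, 3 rose and none fell in lymphomas against mice before transformation: the replication fork enzyme Smarcal1 (by 0.94), the recombination factor Rad54l (by 0.74) and Chd1l (by 0.46). Smarcal1 rose by 0.87 against controls, where Zranb3 fell by 0.44. Chd1l fell before transformation against control by 0.56 (adjusted p = 0.00304).

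Of 23 other bromodomain genes tested, 1 rose and 10 fell in lymphomas against mice before transformation. Trim24 fell by 1.96 ± 0.26 (3.90-fold, adjusted p = 5.94e-05). The paired acetyltransferases parted: Kat2a rose by 1.15 ± 0.15 (adjusted p = 6.46e-05) and Kat2b fell by 1.23 ± 0.17 (adjusted p = 7.31e-05). Against controls 2 rose and 13 fell, with the coactivator Crebbp lower by 1.02, Kat2b by 1.38 and Trim24 by 1.75. Before transformation Crebbp fell by 0.44, Kat2a fell by 0.54 and Brdt rose by 0.50 against control.

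**Figure D5:**
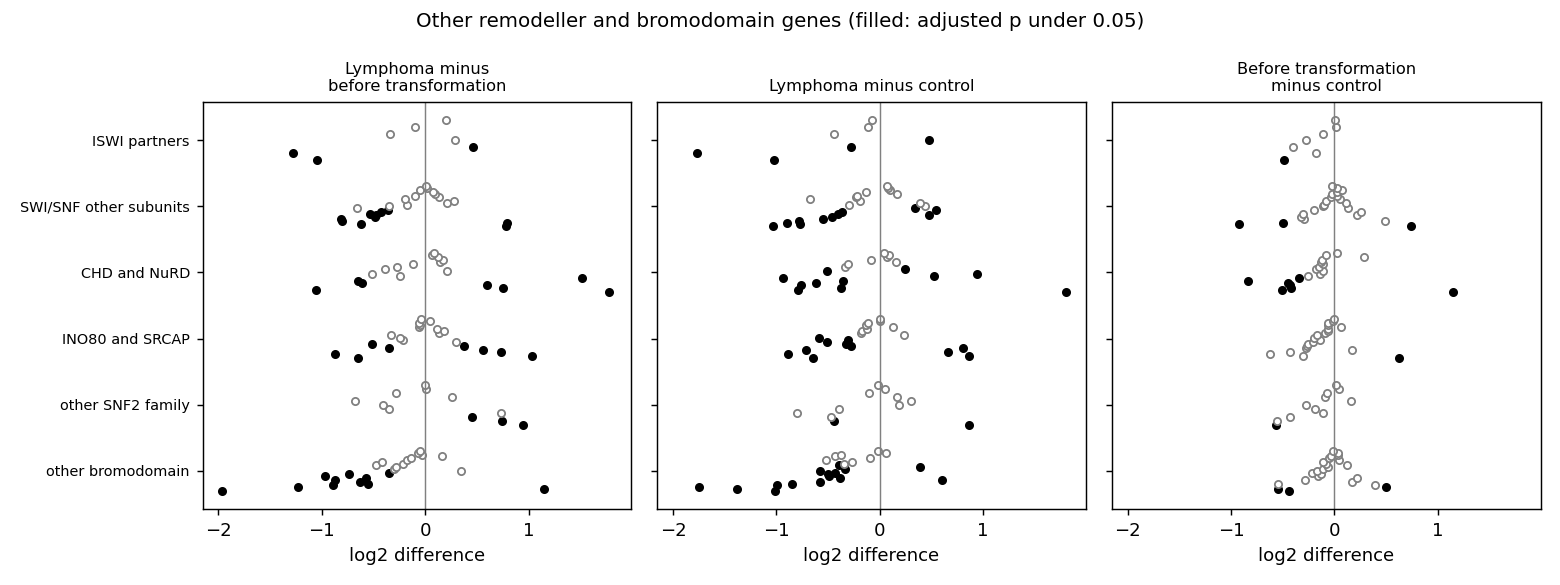
Log2 differences (horizontal axis) of other remodeller and bromodomain genes by list, for lymphoma minus before transformation, lymphoma minus control and before transformation minus control; each point is 1 gene and filled points passed an adjusted p under 0.05. In the bromodomain list 10 of 23 genes fell in lymphomas against mice before transformation and 1 rose.

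Markers of cell types moved with the lymphoma comparisons. All 13 thymocyte markers tested fell in lymphomas against mice before transformation. Their summed intensity was 19980 to 29400 in lymphomas, 50520 to 73610 before transformation and 62650 to 66840 in controls. Cd3e, Cd4 and Cd8b1 stayed above the floor in all lymphomas, whereas Ptcra was at the floor in all 8 and Rag2 in 5 of them. Against controls 12 of the 13 fell. Of 8 macrophage markers, 5 rose in lymphomas against mice before transformation, and against controls 6 rose and 1 fell, with sums of 6765 to 21660 in lymphomas, 1562 to 4916 before transformation and 2904 to 4930 in controls.

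Of 8 stroma and vessel markers, 7 were tested; 2 rose in lymphomas against mice before transformation and 4 against controls, with sums of 1263 to 5710 in lymphomas, 1540 to 2295 before transformation and 1376 to 1568 in controls. Of 7 granulocyte markers 3 rose in lymphomas against mice before transformation, with sums of 1699 to 4253 in lymphomas and 1410 to 2277 before transformation. In controls the granulocyte sum was 3217 to 9828; against it 5 of the 7 fell in lymphomas, and 5 fell before transformation. None of 7 B cell markers passed in either lymphoma comparison (685 to 5992 in lymphomas, 729 to 2662 before transformation, 1158 to 1489 in controls). Of 9 proliferation genes 1 rose in lymphomas against mice before transformation and 2 fell against controls, and the sums overlapped (13460 to 26880 in lymphomas, 17660 to 29030 before transformation, 22560 to 27110 in controls). Of 6 thymic epithelium markers tested 1 fell in each lymphoma comparison. None of 3 erythroid markers passed against mice before transformation, and 1 fell against controls. The labels used here do not give the sex of the mice. Xist rose in lymphomas against mice before transformation by 4.80 (adjusted p = 0.000718) while the Y-linked Kdm5d fell by 2.30 (adjusted p = 0.000286). Kdm5d and the Y-linked Eif2s3y each lay at the floor in 6 of the 8 lymphomas and 2 of the 5 controls. Both stayed above it in every mouse before transformation. Xist ran from 72.7 to 7278 in lymphomas, 67 to 124.8 before transformation and 79.1 to 8593 in controls. Uty, also Y-linked, overlapped (122.5 to 274.5 in lymphomas, 159.7 to 371.3 before transformation). By Xist, Kdm5d and Eif2s3y the groups differed in their share of each sex, and no fit took sex into account. The part of these shifts in the falls of Bptf, Arid1a and Smarca4 in lymphomas, in the rises of Baz1a and Smarca2, or in the levels of Cecr2, was not tested.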

How the data were processed

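Total RNA of 18 mice was hybridized to Affymetrix mouse expression arrays, and groups and mouse numbers come from the sample labels; the design text calls the mice independent. The deposited intensity values are dChip output that the authors made, as the series design text states. The sources used here do not give its version, model or scaling. Of 811818 values 1.20% were blank, on 17 arrays, while control 1 held 605 of 606 negative values. Values under the 20th percentile (53.5) and blanks were set to it. Probe sets above 108.6 (the 40th percentile) on at least 5 arrays, 29947 in all, were tested on log2 intensity with limma 3.58.1 in R 4.3.3, each comparison on its 2 groups, with an intensity trend and Benjamini-Hochberg adjustment. Every adjusted p of 1 gene is limma's, and genes under 0.05 are said to rise or fall. Folds against a group with at least 3 (of 5) or 4 (of 8) mice at the floor are lower bounds. Each gene is represented by its highest-mean probe set. Symbols come from the platform annotation (34945 probe sets with 1 symbol, 932 with several, 9160 with none; 0 symbols changed through gene IDs).

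All members and probe sets are named, with up to 3 genes of smallest adjusted p per list and comparison and the 6 profiles nearest to Cecr2; those nearest to Smarca2 are in the closing section. The members and lists were chosen with earlier results of these data known. Cecr2 entered the fits as planned, but its p-values are not given, since the arrays of both other groups served to choose it. A planned pair, Smarca1 and Smarca5, was not tested because Smarca1 lay at the floor, which left 4 paralog tests. Code was tested on simulated data with 200 changed probe sets. Alternatives covered scaling, floor, filter, fit, mouse numbers and each mouse left out. The number of arrays limits the precision.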

Additional observations from a re-analysis of the deposited data

Results flagged for a closer look

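Sets of member values, each 1 probe set in 1 group, were examined for a lone mouse. Of 74 sets over the 3 groups 4 were flagged, where chance flags about 1 in 20. All 4 flags were of lymphoma 6, and 3 of them were of 1 gene on the same array, so they are not independent. Only some of the 74 sets are of lymphomas, so 4 of 74 is not a rate for this tumour. In this tumour 3 Smarca5 probe sets were low. Its intensity was 532.62 on 1424206_at, where the next lowest lymphoma had 1251.9, and 500.29 on 1424207_at, where the next had 1209.7. On 1424205_at it had 277.95 and the next had 759.68. The Bptf probe set 1456615_a_at read 975.71 in lymphoma 6, and the next lowest lymphoma had 1442.9. The fourth Smarca5 probe set, 1440048_at, read 371 in the same tumour, within the range of 274 to 423 of the 8 lymphomas. Its array had a median of 140.7, inside the range of the others, and the lowest mean log2 signal of the added control probe sets, 9.95. Without lymphoma 6, Bptf on 1456615_a_at fell against mice before transformation by 0.94 (adjusted p = 3.94e-05). The cause of these low values was not tested.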

How the results depend on the processing

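Without Cecr2, the number of members that passed, of 8 tested, was 3 in lymphomas against mice before transformation (2 to 3 over 25 alternatives) and 5 against controls (4 to 6). In the main fit 16.1% of all genes rose and 18.5% fell in the first comparison, and 17.3% and 22.6% in the second. The steadiness of the member counts therefore does not set the members apart from other genes. Among member probe sets other than those of Cecr2, none of the 25 differences that passed changed sign under any alternative. Of the 23 tested probe sets of members other than Cecr2, 12 passed against mice before transformation. This count was 5 with mice numbered 1 and 2 alone, 7 without mouse 4 and 7 without mouse 5 before transformation. Against controls 13 passed, with a lowest count of 11 (no filter on low signal, or without control 1, 2 or 5) and a highest of 14. The share of all probe sets that passed was not counted, so nothing is read from these counts of probe sets. Over lists of other genes the counts ran, against mice before transformation, from 12 to 22 higher and 13 to 31 lower, against controls from 10 to 18 and 18 to 43, and before transformation against control from 2 to 5 and 3 to 20. The median difference of all genes between lymphomas and controls was 0.0835 after quantile normalization and -0.0281 without it.

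Mouse numbers did not pair the samples: same-numbered deviations correlated at -0.14 to 0.38, and at most 3 of 10 mice correlated best with their own number. Between mice numbered 1 or 2 of different groups, deviations also correlated across numbers, at 0.16 to 0.38 in the 8 pairs without control 2 and at about 0 to 0.09 in the 4 pairs with it. The labels call these numbers no batch, and whether they mark one was not tested. Both sets were fitted apart as an alternative planned with earlier results of these data known. Against mice before transformation Bptf 1427310_at fell by 0.84 with mice 1 and 2 (adjusted p = 0.0213) and 1.02 with mice 3 and up (0.00184), and Arid1a 1417440_at by 0.61 (0.0381) and 0.43 (0.017). Smarca4 1426804_at differed by -0.17 with mice 1 and 2 (adjusted p = 0.449) and fell by 0.30 with mice 3 and up (0.0183). A fit with the number as a replicate block gives lymphomas 6, 7 and 8 no weight, since these numbers occur only among lymphomas. In that fit of fewer tumours 3 members passed against mice before transformation and 5 against controls, Cecr2 aside. The share of all genes that passed in it is not given here, so nothing is read from these counts. Under the block Smarca4 1426804_at fell by 0.25 (adjusted p = 0.0667), and Smarca5 1424206_at rose by 0.29 (adjusted p = 0.0308) against mice before transformation.

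Differences that changed sign had not passed, and the cause was not tested. Against mice before transformation they became, for Baz1b 1434824_at, 0.0757 (quantile), 0.0316 (centred) and 0.0314 (mice 3 and up), and for Baz1b 1437420_at 0.0441 (quantile) and 0.0335 (centred). Smarca2 1430526_a_at became 0.0832 (block) and 0.107 (mice 3 and up). With mice 1 and 2 alone, Baz1a 1447930_at became -0.0228, Baz1b 1420975_at -0.12, 1450068_at -0.12 and 1440805_at 0.43. With mice 3 and up, Smarca5 1424206_at became -0.002 and 1424205_at -0.0549. Against controls Smarca5 1424207_at became 0.069 (quantile), 0.0293 (centred), 0.21 (block), 0.0437 (mice 1 and 2), 0.0149 (mice 3 and up) and 0.0245 (number set as a covariate). Smarca5 1440048_at became 0.0983 (quantile), 0.0491 (centred) and 0.16 (mice 3 and up), and Baz1b 1440805_at 0.0168, 0.0139 and 0.0439 under the same settings. Smarca5 1424206_at became 0.0962 (block) and 0.20 (mice 1 and 2), and 1424205_at 0.0278 and 0.49 (adjusted p = 0.0133). With mice 1 and 2, Baz1b 1420975_at became -0.32 and 1450068_at -0.37.

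Leaving out 1 mouse at a time gave these ranges against mice before transformation: Smarca5 1424206_at -0.0163 to 0.23, 1424205_at -0.0288 to 0.30, Baz1b 1437420_at -0.13 to 0.0399, 1440805_at -0.27 to 0.0462 and Smarca2 1430526_a_at -0.38 to 0.0679. Against controls they were -0.21 to 0.037 (Smarca5 1424206_at), -0.12 to 0.13 (1424207_at), -0.16 to 0.0391 (1440048_at) and -0.0901 to 0.10 (Baz1b 1420975_at). Other probe sets opposed the highest-signal one for Smarca5 (1440048_at, -0.42) and Baz1b (0.12 and 0.30 against mice before transformation, 0.0068, 0.24 and 0.26 against controls).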

Other observations

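With each member taken on its highest-signal probe set, Smarca2 (1430526_a_at) was the other member whose group means spanned more than 1 on the log2 scale (1.16). The gene whose profile over the 18 arrays was nearest to that of 1430526_a_at was Kmo, a kynurenine pathway enzyme, at a root mean square difference of 0.35. Next came the G protein subunit Gnaq (0.44), the tropomyosin Tpm4 (0.45), the lymphoid transcription factor Ikzf3 (0.46), the mannosidase Man2a1 (0.48) and the semaphorin Sema4c (0.48). Kmo had mean log2 levels of 7.52 in lymphomas, 7.90 before transformation and 6.82 in controls. Ikzf3 had 10.24 in lymphomas, 10.48 before transformation and 9.62 in controls. The other Smarca2 probe set, 1452333_at, was not used here: lymphoma 3 read 2606 on 1430526_a_at and 361 on 1452333_at. The same array differences enter both members of each pair, so these values too describe the arrays only.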
